A study of Mus musculus with 15 samples.

Results

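The levels of 10 macrophage genes were followed in preparations of mouse left ventricular cardiomyocytes after a low dose of iron ions. The genes were set by name, with earlier results of these data known. They are Csf1r, Cd68 and Adgre1, which mark macrophages in general, Lyve1, Cd163, Mrc1, F13a1 and Mertk, which mark resident-type heart macrophages, Ccr2, which marks recruited monocyte-derived cells, and Cx3cr1, which occurs on both. Each had 1 probe set on the array, so the 10 genes stand among 19937 named genes. Of the 10, 8 passed the filter on dim genes (a mean over all arrays above 5.51 on the log2 scale) and were among the 9968 genes tested. Cd163 (mean 5.42) and Ccr2 (mean 4.83) did not pass it, and their values come from a second fit over all 19937 named genes.

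The donors were C57Bl/6NT males, 8 to 9 months old. Whole animals were sham-treated or irradiated with 0.15 Gy of iron ions (1 GeV per nucleon), a densely ionising radiation with an energy transfer of about 151 keV/µm. After iron, 3 arrays represented each of days 1 and 3, and 2 arrays each of days 7, 14 and 28. Of the 3 sham arrays, pooled here, 2 were from day 1 and 1 was from day 3. For days 7, 14 and 28 there was thus no sham array of the same day, and exposure and time cannot be told apart. Whether the arrays of a group represent separate mice is not labelled. The p-values therefore reflect only how far these arrays scatter, and that scatter may be technical.

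The labels describe collagenase digestion and stepwise calcium selection, which leave mostly cardiomyocytes and, as the submitters state, possibly a few inflammatory or endothelial cells. The mean of 10 cardiomyocyte genes lay between 11.97 and 12.19 on every array. That shows strong muscle signal and not how few other cells were present. Of the fibroblast and macrophage lists, Dcn averaged 10.89 and Lyz2 9.49 over the arrays. Tcf21 (4.62) and Cd14 (5.42), of the same lists, did not pass the filter. These genes were named after their values were seen. Macrophage transcripts were thus measured within bulk RNA, where fewer macrophages and less RNA per macrophage cannot be told apart. Some arrays stood apart from their groups. Replicate 1 of iron day 1 had a fibroblast list mean of 7.57 and an endothelial list mean of 8.38, against at most 6.72 and 7.27 on the other 2 arrays of that day. Between the sham day 3 array and the sham day 1 arrays limma called 0 of the 8 tested members (0 at an unadjusted p under 0.05) and 37 of all 9968 genes. The sham day 3 array had the highest sham means of the B cell (6.52) and T and NK cell (5.50) lists.

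Heart macrophages are in large part resident cells that are seeded early and maintain themselves locally, joined by cells that derive from blood monocytes. Resident cells carry scavenger and uptake receptors such as CD163, the mannose receptor and MERTK, while CCR2 guides monocytes out of the marrow and toward CCL2. Signalling through CSF1R keeps both alive, and the transcription factor PU.1 binds and activates many macrophage promoters.

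The 250 bases before the RefSeq start (GRCm38.p6) were available for 7 of the 10 genes and were searched on both strands for GAGGAA, a core letter sequence of PU.1 sites, and TGCTGAC, a core of Maf recognition sequences. GAGGAA or its reverse complement TTCCTC occurred before 3 of the 7 genes (Mrc1, Cd68 and F13a1, the last at 1 of its 2 starts), and in 23.3% of 32851 promoter windows of the same length. TGCTGAC occurred before 0 of the 7 genes and in 3.81% of all windows. The 3 windows with a match are shown, and that of Cx3cr1, with no match, because its level moved least. Cd163, Mertk and Ccr2 had no match either, yet their group means were highest at iron day 7 and lowest at day 3. Cd68, with a match, had its lowest mean at day 28. Capitals mark GAGGAA or TTCCTC, and each sequence reads 5′ to 3′ toward the start.
Mrc1 (chr2:14229164-14229413, plus strand): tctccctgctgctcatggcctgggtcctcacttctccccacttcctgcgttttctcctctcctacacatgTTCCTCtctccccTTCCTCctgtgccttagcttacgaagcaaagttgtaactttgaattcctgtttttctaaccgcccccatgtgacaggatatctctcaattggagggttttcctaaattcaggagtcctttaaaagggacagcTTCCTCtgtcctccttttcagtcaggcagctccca
Cd68 (chr11:69666171-69666420, minus strand): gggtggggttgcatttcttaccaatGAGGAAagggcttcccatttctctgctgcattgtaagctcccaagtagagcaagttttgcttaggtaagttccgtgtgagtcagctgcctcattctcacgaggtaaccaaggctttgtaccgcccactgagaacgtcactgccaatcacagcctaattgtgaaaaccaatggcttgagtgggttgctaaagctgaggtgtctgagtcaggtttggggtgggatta
F13a1 (chr13:37050245-37050494, minus strand): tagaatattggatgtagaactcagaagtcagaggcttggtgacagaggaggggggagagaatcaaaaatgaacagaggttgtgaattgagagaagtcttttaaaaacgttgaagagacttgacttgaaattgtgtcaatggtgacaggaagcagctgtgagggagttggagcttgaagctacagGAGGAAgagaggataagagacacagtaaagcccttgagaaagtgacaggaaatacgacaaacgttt
Cx3cr1 (chr9:120068297-120068546, minus strand): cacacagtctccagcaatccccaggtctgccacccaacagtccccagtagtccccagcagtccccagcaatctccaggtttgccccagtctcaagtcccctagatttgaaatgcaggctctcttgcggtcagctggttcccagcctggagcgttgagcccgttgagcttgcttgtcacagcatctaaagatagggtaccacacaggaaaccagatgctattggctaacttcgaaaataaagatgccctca
Before Mrc1 the letters stood 180, 167 and 35 bases from the start, all on the minus strand of the gene. Before Cd68 and F13a1 they stood 225 and 66 bases from the start, on the gene's own strand. A match is a description of these letters and not evidence of binding.

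The 10 genes shared a shape with 1 exception. In 9 of the 10, every gene but Cx3cr1, the iron day 7 mean was the highest of the 6 group means and the sham mean came next. In 8 of the 10, every gene but Cd68 and Cx3cr1, the iron day 3 mean was the lowest. Many steps of that order were small: of 50 pairs of neighbouring groups, the arrays stood apart in 14. Iron day 7 stood wholly above sham for 5 genes (Adgre1, Cd163, Mrc1, Lyve1 and F13a1), as it did for 15.3% of the genes tested. Iron day 3 stood wholly below the next group for 4 of the 8 genes it ended (Adgre1, Cd163, Mrc1 and F13a1). For that step, whose next group differs between genes, no share over all genes is at hand, so the 4 cannot be set against one.

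**Figure D1:**
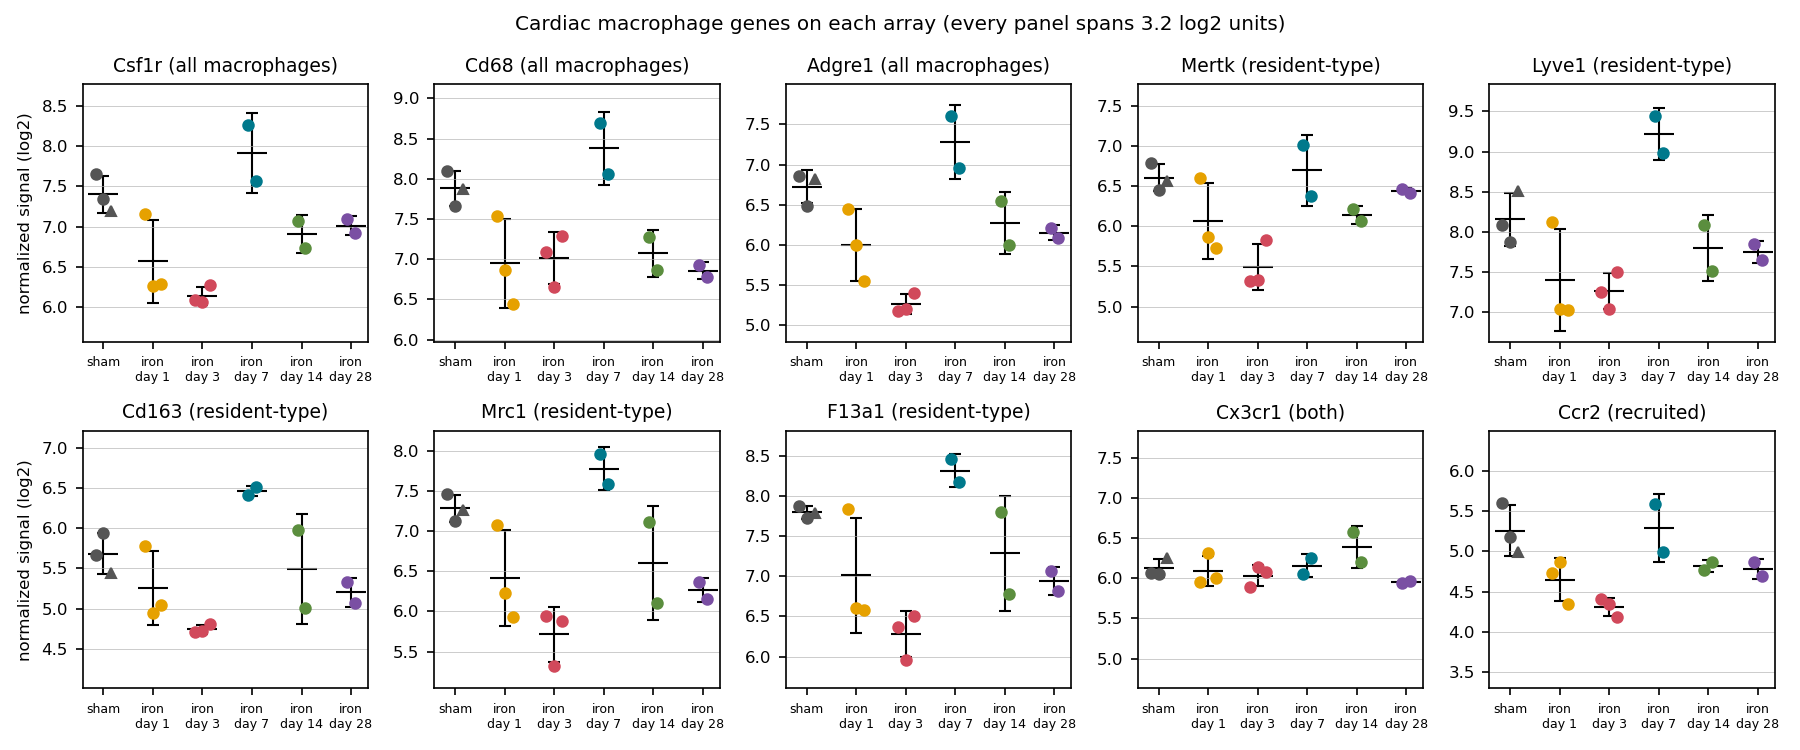
Normalized log2 signal of each of the 10 genes on the 15 arrays, by group (circles; the triangle is the sham day 3 array); black bars are the group mean with its SD over arrays, and every panel spans the same range of log2 units. Apart from Cd68 and Cx3cr1 the panels have their lowest mean at iron day 3, and apart from Cx3cr1 their highest at day 7, as in Adgre1 (5.26 and 7.28), while Cx3cr1 stays between 5.89 and 6.58.

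Among the general markers, Csf1r, the receptor that CSF1 and IL-34 bind (probe set 10456071), read 7.65, 7.35 and 7.20 in sham. It read 7.16, 6.26 and 6.29 at iron day 1, 6.09, 6.06 and 6.27 at day 3, and 8.27 and 7.57 at day 7. At day 14 it read 7.07 and 6.74, and at day 28 7.10 and 6.93. The arrays of days 1, 3, 14 and 28 lay below all sham arrays, while the day 7 arrays overlapped the sham range.

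Adgre1 encodes F4/80, the adhesion receptor by which mouse macrophages are usually recognised (probe set 10446282). It read 6.86, 6.49 and 6.82 in sham, 6.45, 6.00 and 5.55 at day 1, 5.18, 5.20 and 5.40 at day 3, and 7.61 and 6.95 at day 7. At day 14 it read 6.54 and 6.00, and at day 28 6.22 and 6.09. Its day 3 arrays were the lowest 3 of all 15 and its day 7 arrays the highest 2.

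Cd68, a lysosomal membrane protein of phagocytes (probe set 10387536), read 8.10, 7.67 and 7.88 in sham. It read 7.54, 6.86 and 6.45 at day 1, 7.09, 6.65 and 7.29 at day 3, and 8.70 and 8.06 at day 7. It stayed low afterwards, with 7.28 and 6.86 at day 14 and 6.93 and 6.78 at day 28. Unlike the other general markers it had its lowest mean at day 28 (6.85 ± 0.11, SD, n = 2), not at day 3 (7.01 ± 0.33, n = 3).

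Among the resident-type genes, Lyve1, a hyaluronan receptor of vessel-associated macrophages that lymphatic endothelium also carries (probe set 10566934), was at 8.09, 7.87 and 8.51 in sham. It was at 8.13, 7.04 and 7.02 at day 1, at 7.25, 7.04 and 7.50 at day 3, and at 9.44 and 8.99 at day 7. It returned to 8.09 and 7.51 at day 14 and 7.85 and 7.66 at day 28. The day 7 arrays were above every other array. Over the same arrays the mean of the 6 lymphatic endothelial genes measured was 5.70 to 5.93 at day 7 against 5.92 to 5.98 in sham. Of these, Flt4, Mmrn1 and Reln were too dim to pass the filter. At day 7 Pdpn differed from sham by 0.79 (limma adjusted p = 0.138), Nrp2 by 0.04 and Prox1 by -0.18. The part of lymphatic cells in the Lyve1 values was not tested.

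Mrc1, the mannose receptor (probe set 10469358), had sham values of 7.46, 7.13 and 7.26. The values were 7.08, 6.23 and 5.93 at day 1, 5.95, 5.33 and 5.88 at day 3, and 7.96 and 7.59 at day 7. The 2 day 14 arrays differed, at 7.11 and 6.10, and day 28 gave 6.37 and 6.16. The arrays of days 1, 3, 14 and 28 lay below all sham arrays, and those of day 7 above.

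F13a1, the A chain of the fibrin-crosslinking factor XIII, which monocytes also express (probe set 10408693), was tightly grouped in sham at 7.88, 7.72 and 7.79. It was at 7.84, 6.61 and 6.58 at day 1, at 6.37, 5.96 and 6.50 at day 3, and at 8.45 and 8.17 at day 7. Day 14 gave 7.79 and 6.78, and day 28 gave 7.06 and 6.81. Replicate 1 of day 1 sat inside the sham range, whereas the other 2 arrays of that day were over 1 log2 unit lower.

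Cd163, a scavenger receptor for haemoglobin bound to haptoglobin (probe set 10541644), was dimmer, at 5.67, 5.94 and 5.44 in sham. It gave 5.78, 4.94 and 5.05 at day 1, 4.71, 4.72 and 4.81 at day 3, and 6.42 and 6.51 at day 7. Day 14 gave 5.98 and 5.01, and day 28 gave 5.33 and 5.07. Its day 7 pair was the closest among the members (SD 0.07), and lay above all other arrays.

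Mertk, a receptor kinase for uptake of dying cells (probe set 10475890), had sham values of 6.79, 6.46 and 6.57. It gave 6.60, 5.86 and 5.72 at day 1, 5.32, 5.33 and 5.82 at day 3, and 7.01 and 6.38 at day 7. Day 14 gave 6.22 and 6.06, and day 28 gave 6.47 and 6.42. Its day 3 and day 14 arrays lay below sham, while its day 7 arrays were on both sides of the sham range.

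Ccr2 (probe set 10590631) was the dimmest member, at the 35.5th percentile of named genes by mean. Sham gave 5.61, 5.18 and 4.99, day 1 gave 4.73, 4.87 and 4.35, day 3 gave 4.41, 4.34 and 4.19, and day 7 gave 5.59 and 4.995. Day 14 gave 4.76 and 4.87, and day 28 gave 4.87 and 4.69. The arrays of days 1, 3, 14 and 28 were below sham without overlap, and the day 7 arrays fell inside the sham range. Cx3cr1, the fractalkine receptor (probe set 10597743), moved least, with an SD over the 15 arrays of 0.18 against 0.42 to 0.77 in the other 9. It gave 6.07, 6.05 and 6.25 in sham, 5.96, 6.31 and 6.00 at day 1, 5.89, 6.14 and 6.08 at day 3, and 6.05 and 6.25 at day 7. Day 14 gave 6.58 and 6.20, and day 28 gave 5.94 and 5.97. Its groups overlapped with sham on every day but day 28, whose arrays lay just below.

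At day 1 after exposure all 10 genes had means below sham, by 0.03 (Cx3cr1) to 0.93 (Cd68) on the log2 scale. limma called 0 of the 8 tested members (7 at an unadjusted p under 0.05, adjusted p 0.276 to 0.938), where 0.0602% of all genes tested were called lower and 0% higher. The day 1 arrays of 5 of the 10 genes lay below all sham arrays, as did those of 5.8% of the genes tested. Leaving out replicate 1 of iron day 1 turned this into 7 of 8 called lower, all but Cx3cr1, while the share of all genes called lower became 3.49%. In that fit 9 of 9 fibroblast, 7 of 10 endothelial, 11 of 15 general macrophage and 6 of 11 resident macrophage genes were called too, against 0 of each with all arrays. Without that array Lyve1 differed from sham by -1.13 (limma adjusted p = 0.0134). That array also had the highest fibroblast and endothelial means of its day, given above. The part of those cells in the difference was not tested.

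At day 3 the fall was largest. The limma fit called 5 of 8 tested members lower and 0 higher, against 5.25% lower and 2.79% higher over all genes tested. Mrc1 fell by 1.56 (SE 0.29, adjusted p = 0.0102), F13a1 by 1.52 (SE 0.31, adjusted p = 0.0136) and Adgre1 by 1.46 (SE 0.22, adjusted p = 0.00632). Csf1r fell by 1.26 (SE 0.23, adjusted p = 0.00963) and Mertk by 1.11 (SE 0.22, adjusted p = 0.0123). Cd68 and Lyve1 did not pass, at -0.87 (adjusted p = 0.0520) and -0.89 (adjusted p = 0.0601), and Cx3cr1 stood at -0.09 (adjusted p = 0.669). In the fit of all named genes, where 3.11% were called lower, Ccr2 fell by 0.95 (SE 0.18, adjusted p = 0.0144) and Cd163 by 0.94 (adjusted p = 0.0376). All 3 day 3 arrays lay below all sham arrays for 9 of the 10 genes, and for 15.8% of the genes tested.

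The day 3 count rested in part on single arrays. When replicate 2 of iron day 3 was left out, 2 members passed (Adgre1 and Csf1r), with 0.953% of all genes called lower. With replicate 1 of sham day 1 left out, 3 did (Adgre1, Csf1r and Mrc1), with 1.34% called lower. Against the sham day 3 array alone Adgre1 passed and the others did not. Cd163 lost its call without any 1 of the 3 day 3 arrays, the 3 sham arrays or the 2 day 28 arrays (adjusted p up to 0.108). Ccr2 lost its call when replicate 2 of iron day 3 was omitted (adjusted p = 0.0604) and when the first sham day 1 array was (adjusted p = 0.0617).

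The wider macrophage lists fell at day 3 as well, and so did the fibroblast and endothelial lists. Of 15 tested general macrophage genes, 12 fell (median -1.36, against 0.04 over all genes tested). They included Lyz2, lysozyme, at -1.71, Tyrobp, the DAP12 signalling adaptor, at -1.66, Laptm5, a lysosomal protein of blood cells, at -1.64, and Cybb, an oxidase subunit, at -1.58. Of 11 resident macrophage genes, 6 fell (median -1.11), among them the growth factor Igf1 (-1.74), the scavenger receptor Stab1 (-1.32), the platelet-factor gene Pf4 (-1.31) and the complement receptor Vsig4 (-1.23). Of 5 monocyte and recruited-cell genes, 4 fell (median -1.42): Lyz1 (-1.55), Ccl9 (-1.44), Vcan (-1.42) and Fn1 (-1.28). Fibroblasts also make Vcan, Fn1 and Igf1. That list is thin, since 5 of its 16 genes on the array passed the filter. Of 14 efferocytosis genes, those for uptake of dying cells, 6 fell (median -0.41), led by Anxa1 (-1.44), Axl (-1.35), Stab1 and Dock2 (-1.29).

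Counts of these lists also moved with single arrays. Leaving out replicate 2 of iron day 3 gave calls for 6 general macrophage genes, 1 resident gene, 0 monocyte genes and 2 efferocytosis genes. Leaving out the first sham day 1 array gave 7, 1, 2 and 3 in the same order. Without the sham day 3 array 7 general, 2 resident and 2 monocyte genes were called, without replicate 1 of iron day 3, 3 resident genes, and without its replicate 3, 2 monocyte genes. Beside the macrophage genes, 9 of 9 tested fibroblast genes (median -1.57) and 8 of 10 endothelial genes (median -1.20) fell at day 3, and 0 of 10 cardiomyocyte genes did (median 0.00). The fibroblast list mean was 6.17 to 6.43 at day 3 against 7.67 to 7.79 in sham, and the endothelial one 6.85 to 7.24 against 8.04 to 8.43. The fall was thus shared by the macrophage, fibroblast and endothelial lists. Of the dendritic, B cell, T and NK cell, mast cell and lymphatic endothelial lists limma called 0 genes at day 3. The dendritic mean was 4.63 to 4.69 against 4.54 to 4.68 in sham. The B cell, T and NK cell, mast cell and smooth muscle means also overlapped their sham ranges. The lymphatic, neutrophil and erythroid means lay below theirs. The part of these other cells in the members' difference was not tested. The endothelial count was 3, 1 and 5 when replicates 1, 2 and 3 of iron day 3 were left out in turn. It was 2 when the first sham day 1 array was omitted, and 5 when the sham day 3 array or either day 28 array was.

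**Figure D2:**
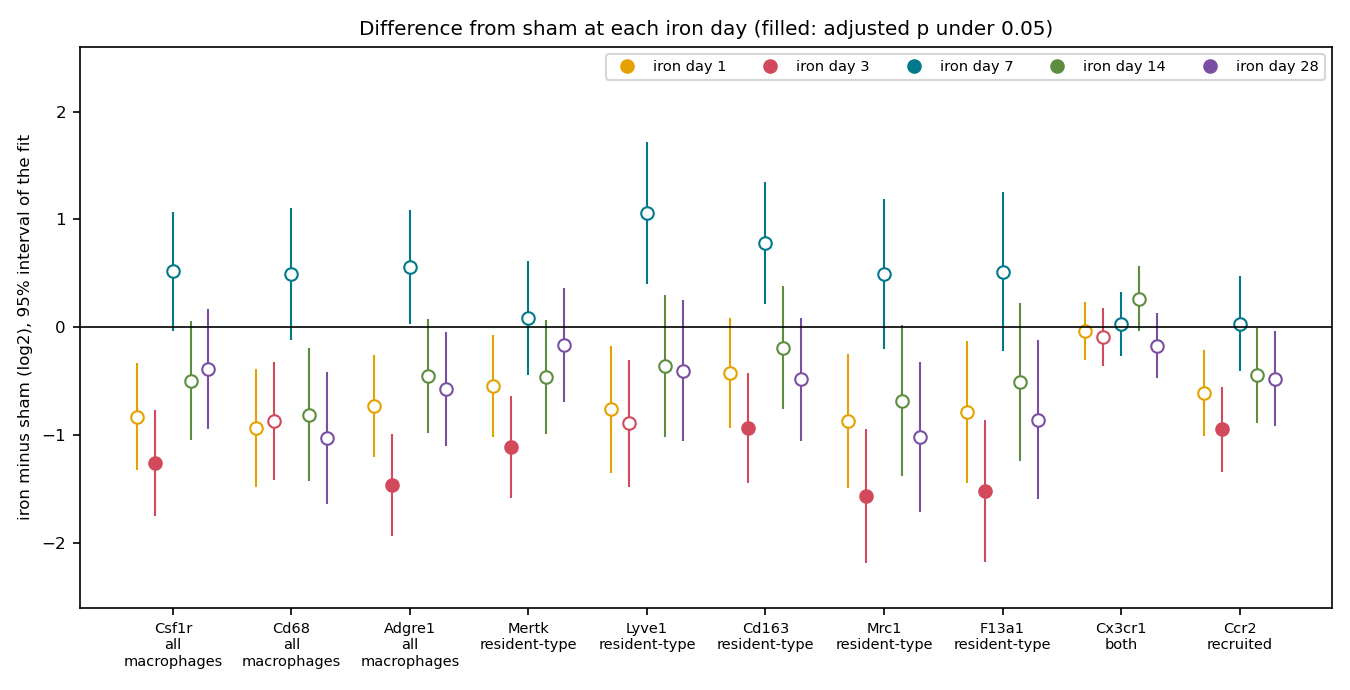
Difference of each iron day from sham for the 10 genes on the log2 scale; points are fitted differences, lines their 95% intervals from the fit, and filled points have an adjusted p under 0.05 (Cd163 and Ccr2 from the fit of all named genes). Filled points occur at day 3 for 7 genes, while the day 7 points lie at or above 0, highest for Lyve1 at 1.06.

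At day 7 all 10 genes had means above sham, from 0.03 (Cx3cr1) to 1.06 (Lyve1). limma called 0 of 8 tested members (2 at an unadjusted p under 0.05), against 1.95% of genes called higher and 2.67% lower. Lyve1 stood at 1.06 (SE 0.31, adjusted p = 0.0639), Cd163 at 0.78 (adjusted p = 0.128 in the fit of all named genes, where 1.35% were called higher), Adgre1 at 0.56, Csf1r at 0.52, F13a1 at 0.52, Cd68 at 0.50 and Mrc1 at 0.49. Mertk (0.09) and Ccr2 (0.04) were close to sham. Lyve1 passed without replicate 1 of iron day 1 (adjusted p = 0.0187). Both day 7 arrays lay above all sham arrays for 5 of the 10 genes, and for 15.3% of the genes tested.

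Genes of the resident list rose against sham at day 7: 4 of 11 tested (median 1.06, against -0.03 over all genes). These were Fcna, the lectin ficolin A (2.14, adjusted p = 0.0189), Timd4, a phosphatidylserine receptor of long-lived resident macrophages (1.98, adjusted p = 0.0216), Vsig4 (1.41, adjusted p = 0.0350) and Ms4a6d (1.16, adjusted p = 0.0189). Timd4 read 8.09 and 7.04 at day 7 against 5.34, 5.19 and 6.23 in sham, with replicate 1 the higher of the pair. Of the general list, 2 of 15 rose, the scavenger receptor Msr1 (1.29) and the complement gene C1qc (1.17), and of the monocyte list 0 of 5 by limma (1 at an unadjusted p under 0.05, median 0.56). The difference between the resident and monocyte lists was not tested. All of these calls were lost when replicate 1 of iron day 7 was omitted, and also when either sham day 1 array was. The general list had 0 calls as well without the sham day 3 array or any 1 of the day 3 or day 28 iron arrays. It had 1 when replicate 2 of iron day 1 was omitted and 4 when that of iron day 7 was. The monocyte list had 1 call without replicate 1 or 3 of iron day 1 or without the sham day 3 array.

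At day 7 limma called 0 of 9 fibroblast genes (3 at an unadjusted p under 0.05, median -0.25) and 0 of 10 endothelial genes (2 at an unadjusted p under 0.05, median -0.58). With replicate 1 of iron day 1 left out, 4 fibroblast genes passed, and 1 without its replicate 3 or without the sham day 3 array. Their list means, 7.13 to 7.53 and 7.35 to 7.95, lay below the sham ranges given above, whereas the general macrophage mean was 7.30 to 7.94 against 6.76 to 7.07 in sham. Markers of other cells also differed from sham at day 7. The B cell list mean was 7.65 on replicate 1 and 6.09 on replicate 2, against 5.05 to 6.52 in sham, and the B cell gene Ighm rose by 0.57 (adjusted p = 0.0119). The dendritic cell gene Cd209a rose by 0.61 (adjusted p = 0.0450). Neither passed without replicate 1 of iron day 7, and Cd209a also lost its call when any 1 sham or day 28 array, replicate 3 of iron day 1, or replicate 2 or 3 of iron day 3 was omitted. The T and NK cell mean, 4.39 to 4.74, was inside the sham range of 3.97 to 5.50. The cardiomyocyte mean, 11.97 to 12.04, lay below the sham range of 12.11 to 12.16, and 1 of its 10 genes, the calcium channel gene Ryr2, fell by 0.33 (adjusted p = 0.0295), a call lost when replicate 1 of iron day 7 or any 1 sham array was omitted. These genes were named after their values were seen, and their part in the members' difference was not tested.

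**Figure D3:**
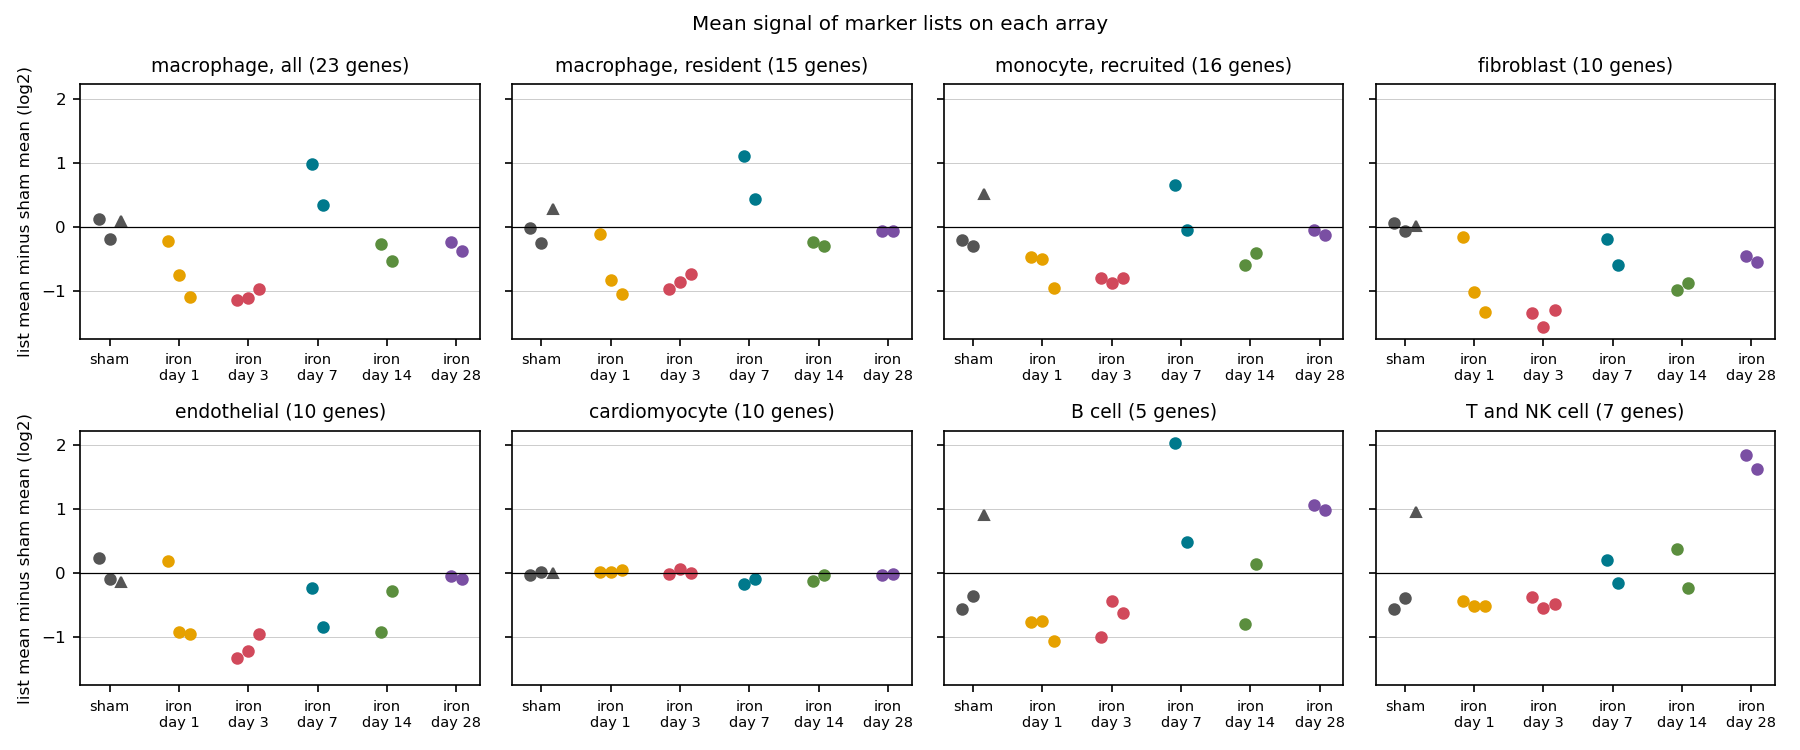
Mean log2 signal of 8 marker lists on each array, minus the list's mean over the 3 sham arrays, by group (triangle, sham day 3 array; the number of genes on the array stands in each title). Macrophage, fibroblast and endothelial lists all drop at iron day 3, but at day 7 the general and resident macrophage lists are above sham while the fibroblast list (7.13 to 7.53 against 7.67 to 7.79 in sham) is below it.

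The step from day 3 to day 7 compares iron arrays only, although the sham arrays enter the fit's estimate of spread. limma called 7 of 8 higher, all but Cx3cr1 (0.12, adjusted p = 0.597), against 6.75% of all genes tested called higher and 8.07% lower. Mrc1 rose by 2.06 (SE 0.32, adjusted p = 0.00214), F13a1 by 2.04 (adjusted p = 0.00298), Adgre1 by 2.02 (SE 0.25, adjusted p = 0.000587) and Lyve1 by 1.95 (adjusted p = 0.00214). Csf1r rose by 1.78 (adjusted p = 0.00177), Cd68 by 1.36 (adjusted p = 0.00809) and Mertk by 1.20 (adjusted p = 0.00741). In the fit of all named genes, where 4.32% were called higher, Cd163 rose by 1.72 (adjusted p = 0.00240) and Ccr2 by 0.98 (SE 0.21, adjusted p = 0.0107). The arrays did not overlap for 9 of the 10 genes, nor for 18% of the genes tested. Without replicate 1 of iron day 7, 4 members passed (Adgre1, Csf1r, Lyve1 and Mrc1) with 0.813% of all genes called higher, and Ccr2 stood at 0.68 (adjusted p = 0.215).

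Over the same step 13 of 15 general macrophage genes rose (median 2.21, against -0.06 over all genes), with Cd53 at 2.56, the protease Ctss at 2.45, C1qc at 2.41 and Tyrobp at 2.40. Of the resident genes 10 of 11 rose (median 2.15), led by Fcna (2.95), Vsig4 (2.64), Timd4 (2.54) and Ms4a6d (2.17). Of the monocyte genes 5 of 5 rose (median 1.88), among them Ccl9 (3.01), Lyz1 (2.11), the matrix protein Thbs1 (1.88) and Fn1 (1.49). Of 9 genes of the CSF1 and chemokine axis, 5 rose: Ccl3 (2.09), Cxcr4 (1.50), Ccl7 (1.37), Ccl2, the ligand of CCR2 (1.22), and Csf2ra, a growth factor receptor chain named here after its values were seen. Of 14 efferocytosis genes 7 rose (median 0.62). Fibroblast genes rose in 8 of 9 cases (median 0.96), endothelial ones in 3 of 10, and both tested genes each of the B cell, mast cell (Cpa3 2.04, Mcpt4 1.98) and dendritic cell lists (Ccr7 1.19, Cd209a 0.67) rose. Of 3 lymphatic endothelial genes Pdpn rose (1.56), and of 10 cardiomyocyte genes Ryr2 (-0.34) and Mybpc3 (-0.31) fell. These genes of other cells were named after their values were seen, and their part in the members' rise was not tested. Without replicate 1 of iron day 7 the general list kept its count of 13, and the others fell to 3 (resident), 1 (monocyte), 0 (CSF1 and chemokine), 0 (efferocytosis), 0 (fibroblast), 0 (endothelial). The B cell, mast cell, dendritic, lymphatic and cardiomyocyte lists then had 0 calls too. Leaving out replicate 1 of iron day 3, the monocyte count was 3, the CSF1 and chemokine count 2, the fibroblast count 5 and the endothelial count 1. Without its replicate 2 these were 3, 2, 4 and 1, with 4 efferocytosis genes, and without its replicate 3 the monocyte and endothelial counts were 3 and 1. Leaving out any 1 sham or day 28 array also left 1 endothelial gene.

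Csf1, the gene of a growth factor that feeds CSF1R, read 7.24, 7.27 and 7.41 in sham, 7.78, 7.61 and 7.50 at day 3, and 7.66 and 7.04 at day 7. Its day 3 arrays were above all sham arrays, a difference of 0.32 that limma did not call (adjusted p = 0.242). Spi1, the gene of PU.1, named after its values were seen because its motif was searched, fell by 0.95 at day 3 (adjusted p = 0.0166) and rose by 1.52 from day 3 to day 7 (adjusted p = 0.00184).

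Day 14 lay between these extremes, and its arrays disagreed. limma called 0 of 8 members (1 at an unadjusted p under 0.05), against 0.592% of genes called higher and 0.241% lower. Differences from sham ran from -0.81 (Cd68) to 0.26 (Cx3cr1). The arrays of 5 genes lay below all sham arrays, as for 17% of the genes tested. Replicate 1 was the higher array for 9 of the 10 genes, all but Ccr2, by about 1 log2 unit in Mrc1, F13a1 and Cd163, while the endothelial list mean was lower on it (7.27) than on replicate 2 (7.92). The fibroblast mean, 6.74 to 6.85, lay below the sham range of 7.67 to 7.79, and 2 of 9 fibroblast genes fell, Postn by 1.69 and Lum by 1.39. That count ran from 0 (without either day 14 or either sham day 1 array) to 8 (without replicate 1 of iron day 1).

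At day 28 all 10 means were below sham, and the arrays of 9 genes, all but Mertk, lay below all sham arrays, as for 19.4% of the genes tested. limma called 0 of 8 (4 at an unadjusted p under 0.05), with 0.582% of all genes called lower and 1.41% higher. The lowest were Cd68 at -1.03 (SE 0.28, adjusted p = 0.0819), Mrc1 at -1.02 (adjusted p = 0.121) and F13a1 at -0.86 (adjusted p = 0.196). Cd68 passed without replicate 1 of iron day 1 (adjusted p = 0.0340). The T and NK cell list mean was 6.17 to 6.39 at day 28 against 3.97 to 5.50 in sham, and both of its tested genes rose, but 0 did without replicate 1 of iron day 28 and 1 without its replicate 2. The endothelial mean, 8.10 to 8.15, lay within the sham range, while the general macrophage mean, 6.58 to 6.72, lay below its own (6.76 to 7.07). The fibroblast mean, 7.18 to 7.27, also lay below its sham range, and Postn fell by 1.81 (adjusted p = 0.00866), a call lost without either day 28 array. The part of these cells in the members' values was not tested.

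Across the 5 iron days, the F test of limma called 7 of 8 members, all but Cx3cr1, against 19.2% of all genes tested. In the fit of all named genes (9.98% called) Cd163 passed (adjusted p = 0.0114) and Ccr2 did not (adjusted p = 0.0522). When replicate 1 of iron day 7 was omitted, 2 members passed (Adgre1 and Csf1r). Late iron days (7, 14 and 28) exceeded early ones (1 and 3) for 6 of 8 members, against 10.3% of all genes called higher and 11.7% lower: Adgre1 by 0.94 (adjusted p = 0.00166), Lyve1 and Csf1r by 0.92, F13a1 by 0.87, Mrc1 by 0.82 and Mertk by 0.65. Cd68 stood at 0.45 (adjusted p = 0.0867). In the fit of all named genes, where 6.56% were called higher, Cd163 rose by 0.72 (adjusted p = 0.0139) and Ccr2 by 0.48 (adjusted p = 0.0282). Ccr2 lost this call without replicate 3 of iron day 1 (limma adjusted p = 0.0748) or replicate 2 (0.0567) or 3 (0.0647) of day 3. It also lost the call without replicate 1 of day 7 (difference 0.38), replicate 2 of day 14 (0.46) or replicate 1 of day 28 (0.45). Cd163 lost its own without replicate 1 of day 28 (difference 0.68). The early and late arrays overlapped for all 10. Not every late day exceeded every early one. The day 28 mean was below the day 1 mean for Mrc1 (6.27 against 6.41), F13a1 (6.94 against 7.01) and Cd163 (5.20 against 5.26). The same held for Cd68 (6.85 against 6.95) and Cx3cr1 (5.95 against 6.09). It was above the day 1 mean for Csf1r, Adgre1, Lyve1, Mertk and Ccr2.

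Beyond the members, 13 of 15 general (median 1.13), 9 of 11 resident (median 1.09) and 3 of 5 monocyte genes (median 0.86) were higher on the late days. Fcna (1.94), Dock2 (1.71) and Cxcr4, the receptor of CXCL12 (1.36), did so with no overlap of arrays, a separation that 1.77% of the genes tested had. From the lists of other cells, Mcpt4 and Pdpn had it too. Fibroblast genes were higher in 7 of 9 cases, and in 3 when replicate 1 of iron day 7 was omitted. Genes of other cells were higher as well: both tested genes each of the mast cell (Cpa3 1.66, Mcpt4 1.64), B cell, T and NK cell (Cd4 1.39, Cd3e 0.83) and dendritic lists, and Pdpn (1.18) of 3 lymphatic genes. Of 10 endothelial genes 2 were higher (1 to 10 as each array was left out in turn), and of 10 cardiomyocyte genes 4 were lower (2 to 4). These single genes were named after their values were seen, and their part in the members' difference was not tested.

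Resident and recruited markers were compared within arrays, as the log2 difference between Ccr2 and each of the 5 resident-type genes. Such a difference shows unequal change and not relative abundance. Two-sided exact permutation tests over arrays, in 3 contrasts and 15 tests, gave 0 below 0.05 before or after adjustment (adjusted p 0.762 to 1). At day 3 against sham Ccr2 had fallen less than Mrc1 by 0.62 (exact p = 0.1, the smallest that 3 against 3 arrays allow) and less than F13a1 by 0.57 (exact p = 0.2). Against Cd163 the difference was -0.01, against Lyve1 -0.06 and against Mertk 0.17. On late against early iron days Ccr2 had risen less than each resident-type gene, by 0.17 (Mertk) to 0.44 (Lyve1, exact permutation p = 0.147). All 15 tests rest on the 1 probe set of Ccr2, which did not pass the filter of 5.51. At day 3 it read 4.19 to 4.41, where dim signal may limit how far a gene can fall. Whether that made the fall of Ccr2 smaller was not tested. These tests do not show that the 2 kinds of marker moved alike.

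The day 7 arrays, singled out after the values were seen and not among the contrasts tested, stood below sham for 4 of the 5 resident-type genes. All 5 differences share the same dim Ccr2 probe set, so they are not separate observations. How often other pairs of genes separate in this way was not computed. Ccr2 minus Lyve1 was -2.48, -2.69 and -3.52 in sham and -3.85 and -3.99 at day 7, without overlap. Ccr2 minus Cd163 was -0.06, -0.76 and -0.45 in sham and -0.83 and -1.52 at day 7, also without overlap. For F13a1 and Mrc1 the day 7 mean differed from the sham mean by -0.48 and -0.46, a smaller distance than the day 3 one, which was in the other direction. For Mertk the day 7 arrays fell inside the sham range.

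**Figure D4:**
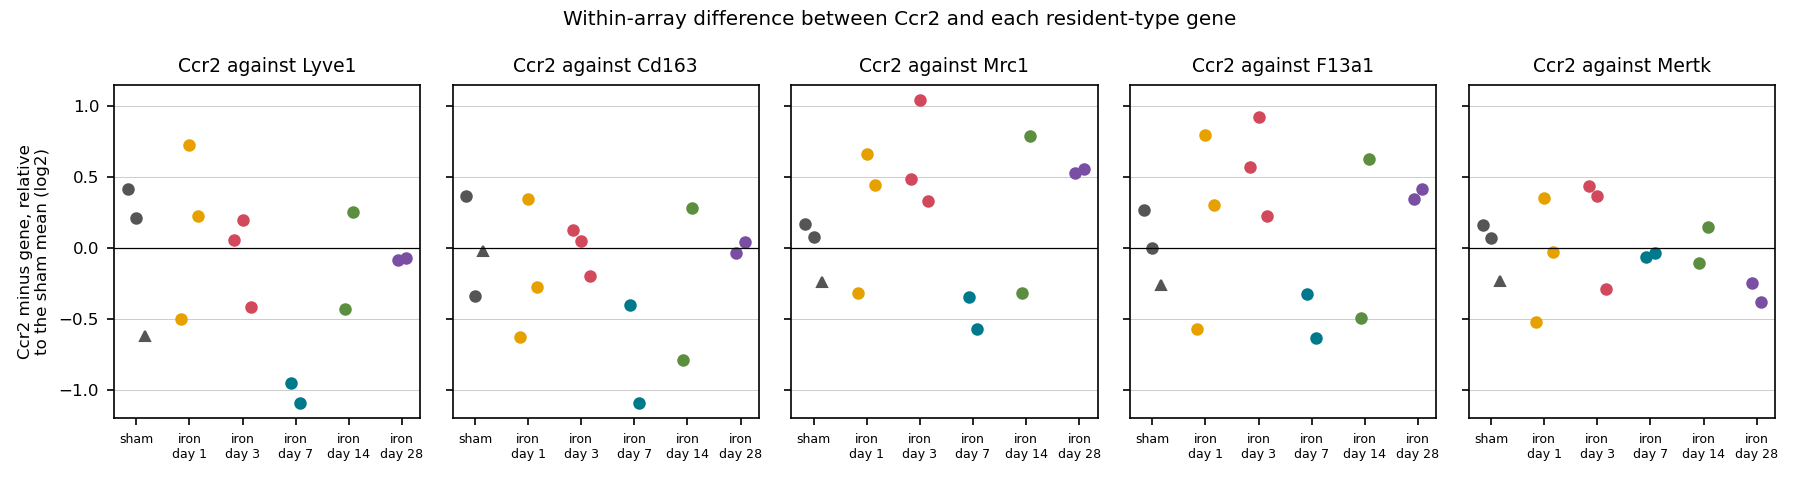
Log2 difference between Ccr2 and each of the 5 resident-type genes on each array, minus its mean over the 3 sham arrays (triangle, sham day 3 array). The 2 day 7 arrays are the lowest in the Lyve1 panel (-3.85 and -3.99 before the sham mean is taken off), while at day 3 the points are mixed around 0 for Lyve1 and Cd163 and above it for Mrc1 and F13a1.

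Genes with the closest values were found by the root mean square difference of values centred over the 15 arrays. This measure depends on the size of a gene's changes as well as on their shape. Nearest to Csf1r were Pld4 (0.10), the chemokine gene Cxcl16 (0.13) and Fcer1g, an Fc receptor chain (0.14), where the median over genes was 0.67. Nearest to Lyve1 were Folr2, a folate receptor of resident macrophages (0.19), C1qb (0.20) and C1qa (0.20), with a median of 0.73. Nearest to Ccr2 were Srd5a3 (0.18), Dap (0.19) and Sh3bgrl (0.20), with a median of 0.46. The neighbours of Csf1r and Lyve1 included genes of the macrophage lists, and those of Ccr2 did not. Ccr2 also moved less, with an SD over the arrays of 0.42 against 0.65 for Csf1r and 0.71 for Lyve1. The group means of Ccr2 stood in the same order as those of Lyve1 and Adgre1. Its neighbours therefore do not show that its shape differed from that of macrophage genes.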

How the data were processed

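The authors' deposited values were log2 signals of 34760 probe sets on 15 arrays (0.234 to 13.01, 0 missing, array medians 4.96 to 5.13). MAS5 is named by the submitters' processing notes. Its version, and whether it produced these values, is not given in the sources used here. A single gene symbol belonged to 21640 probe sets, several to 1321 and none to 11799, and 19937 named genes remained, each with its brightest probe set. The 9968 genes with a mean above 5.5125, the 50th percentile, were tested.

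limma 3.58.1 (R 4.3.3) fitted 6 group means with an intensity trend and 9 residual degrees of freedom. P-values were adjusted over all genes tested by Benjamini and Hochberg's method, with a threshold of 0.05. Tested on simulated data for 9968 genes at day 3, the fit found 93 of 100 changes sized 1 log2 unit, found 60 of 100 sized 0.5, and made 5 false calls. At day 7 it found 90 and 45, with 4 false calls. Recovery at the members' own spread was not tested. Lyve1 at 1.06 at day 7, and Cd68 at -1.03 and Mrc1 at -1.02 at day 28, were not called, whereas Mertk at -1.11 at day 3 was. A missing call therefore does not show that a member was unchanged. Python 3.11.15, pandas 2.3.3, numpy 2.4.6, scipy 1.17.1 and matplotlib 3.10.9 did the rest.

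The members and marker lists were chosen with earlier results of these data known. Besides the members, the text names up to 4 genes with the largest called difference per macrophage-related list and comparison. It also names the 3 genes with centred values nearest to Csf1r, Lyve1 and Ccr2. Ccr2 was compared with resident-type genes by exact permutation tests over arrays. Alternatives were other normalizations, filters, variance models, control arrays, a replicate block, and leaving out arrays, some chosen after seeing the data. The numbers of the replicates did not settle a pairing. Proton-exposed samples were not analysed here.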

Additional observations from a re-analysis of the deposited data

Results flagged for a closer look

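For 7 genes the iron days differed from each other by limma's F test over the 5 days, which is a test of the difference itself. The adjusted p values were 0.00284 for Adgre1, 0.00620 for Csf1r, 0.00752 for Lyve1, 0.0111 for Mrc1, 0.0144 for F13a1, 0.0172 for Cd68 and 0.0261 for Mertk. Each had its highest iron mean at day 7. The lowest was at day 3 for every one but Cd68, which was lowest at day 28. Without replicate 1 of iron day 7, Adgre1 and Csf1r passed and the other 5 did not.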

How the results depend on the processing

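When each array was left out in turn, the count of members called ran from 0 to 7 at day 1 (main value 0), 2 to 7 at day 3 (5), 0 to 1 at day 7 (0), 0 to 0 at day 14, 0 to 1 at day 28 (0), 4 to 7 from day 3 to day 7 (7), 6 to 7 for late against early days (6) and 2 to 7 in the F test (7). Leaving out replicate 1 of iron day 1 with the sham day 3 array, an alternative chosen after seeing the data, gave 4 at day 1, 1 at day 7 and 1 at day 28. Leaving it out with replicate 1 of iron day 7, also chosen after seeing the data, gave 7 at day 1 and 1 at day 28. At day 1 that setting called 632 of the 9968 genes tested, against 6 in the main fit. Array weights gave 1 at day 1 and 4 at day 28. At day 28 they called 2449 of all genes tested, against 199 in the main fit, so those 4 cannot be set against the main 0. The stricter filter, which 5 members passed, gave 3 at day 3, and the sham day 3 array alone as control gave 1. At day 28 median centring gave 1 (100 genes higher and 192 lower over all genes tested) and a fit of only the groups compared gave 3. Counts over all genes moved with the settings too, as given below. With the replicate block, which leaves out the unnumbered sham day 3 array, 1 member was called at day 7 (Lyve1, 1.24, adjusted p = 0.0291) and 2 at day 28, and the other counts of members were as before. At day 3 the block left calls for 5 general, 2 resident, 1 monocyte, 2 efferocytosis and 1 endothelial gene, and Lyz2, Laptm5, Pf4, Vsig4, Lyz1, Ccl9, Fn1, Anxa1, Axl and Dock2 lost theirs. Vsig4 and C1qc lost theirs at day 7, Thbs1, Ccl3 and Ccl2 from day 3 to day 7, and Fn1 for late against early days. The block gave 3 CSF1 and chemokine genes and 1 endothelial gene from day 3 to day 7, and 3 fibroblast genes for late against early days. Correlations of residuals between arrays of the same number ran from -0.39 to 0.57 (median 0.09, 31 pairs), so the numbers were not shown to pair the samples. The tests of Ccr2 against resident-type genes gave 0 under every alternative run. For day 3 against sham this was fixed in advance, since 3 against 3 arrays allow no exact permutation p below 0.1.

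Over all genes tested, the calls at day 3 went from 801 to between 126 and 1691, those at day 7 from 460 to between 45 and 1111, those at day 28 from 199 to between 37 and 2449, and those from day 3 to day 7 from 1477 to between 143 and 1796. At day 1 they went from 6 to between 0 and 632, at day 14 from 83 to between 25 and 293, in the late against early comparison from 2194 to between 1248 and 2823, and in the F test from 1912 to between 612 and 4051. With the replicate block the counts were 0 at day 1, 157 at day 3, 54 at day 14, 395 at day 28, 1444 for late against early days and 1260 in the F test. Median centring moved the share of calls that were higher from 34.7% to 11.8% at day 3, from 42.2% to 16.8% at day 7, from 71.1% to 47.6% at day 14, from 70.9% to 34.2% at day 28 and from 46.8% to 36.4% for late against early days, and quantile normalization moved that of day 28 to 58.6%. With median centring the median difference of all genes at day 7 was -0.11. The cause of these changes was not tested. Dim signal limits Ccr2 and Cd163, which the main filter left out.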
